A study of Homo sapiens with 6 samples.

Results

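The genes described here are 53 named genes of the short arm of chromosome 20 (20p), of which 44 could be measured among the 11963 genes tested. The arm was selected on the difference in expression levels between LCCTam and SUM44 cells seen in these same arrays, and its genes were listed with those results known. The differences are therefore a description of the genes, and the calls below are no independent evidence that the arm differs. Each gene is represented by its brightest probe set over the 6 arrays. Of the other 9 listed genes, NOP56 was covered only by 2 probe sets that it shares with small RNA genes. TBC1D20, SDCBP2, GPCPD1, CRLS1, DTD1, NAA20, CRNKL1 and XRN2 had no named probe set in the annotation used and were not analysed here. The centromere was taken as the widest stretch of chromosome 20 without a coding gene in the RefSeq gene table of GRCh38.p14. All 44 measured genes lay before it, so the label of the arm held on that boundary.

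The study compared 3 cultures of SUM44 cells with 3 cultures of LCCTam cells on Affymetrix arrays, 1 array for each culture. Both are human breast carcinoma lines that the labels give as invasive lobular, positive for estrogen and progesterone receptors and grown in the same medium. The SUM44 cultures, labelled sensitive to tamoxifen, had received 500 nM 4-hydroxytamoxifen (4HT), the active form of the drug, for 24 hours. The LCCTam cultures, labelled resistant, had been kept without 4HT for 14 days. Line and drug differ together between the groups and cannot be told apart, and each group stands for 1 cell line. Values are log2 expression levels, on which a step of 1 is a doubling, and every difference is LCCTam minus SUM44.

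Luminal markers were bright in both lines, with ESR1, the estrogen receptor, at 11.62 in SUM44 and 10.22 in LCCTam and the keratin KRT18 at 13.76 and 13.34. PGR, the progesterone receptor, stood at only 4.22 and 4.01, so the receptor named in the labels was dim at this probe set. CDH1, the adhesion protein usually lost in lobular tumours, was at 6.52 and 6.73. Markers of leukocytes (PTPRC) and of endothelium (PECAM1 and CDH5) lay below the median of gene means, at 4.14 to 6.15. The SUM44 arrays correlated over genes at 0.994 to 0.995 and the LCCTam arrays at 0.958 to 0.987. The 27 control probe sets for RNA spiked in during labelling averaged 6.42 to 6.82 in SUM44 and 6.80 to 7.37 in LCCTam, and the part of this shift in the results below was not tested.

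The genes of a chromosome arm have no shared function, but they share their copies: a gain or loss of the arm alters the dose of all of them at once. In tumour cells the level of many, though not all, transcripts follows the number of gene copies. The arm 20p carries genes of splicing, vesicle transport, mitochondrial metabolism and signalling that most cells use, beside genes restricted to neurons, secretory glands or endothelium. DNA copies were not measured here.

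Members of 20p that gave a clear signal were mostly lower in LCCTam than in SUM44, and no member was called higher. A gene is called here when its adjusted p is under 0.05 in the limma fit over all genes. Of the 44 measured members, 20 were called lower and 24 were not called, while 6.60% of all genes tested were called lower and 9.18% higher. No member reached an unadjusted p under 0.05 in the higher direction, and 21 did in the lower, against 2068 and 1685 of all 11963 genes. The 3 LCCTam arrays all lay below the 3 SUM44 arrays at 22 members and all above them at 3 members, against 13.5% and 21.8% of all genes. At 9 members the level was at least 2-fold lower, as it was at 4.48% of all genes. The median difference was -0.27 over the members and 0.08 over all genes. Since the genes were chosen on this comparison, nothing is read from these shares. In whole cultures, fewer cells that express a gene and less of its RNA in each cell cannot be told apart.

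The number of called members depended on single arrays. With 1 SUM44 array left out it was 10 (replicate 1), 12 (replicate 2) or 10 (replicate 3). With 1 LCCTam array left out it was 21 (replicate 1), 12 (replicate 2) or 18 (replicate 3), always in the lower direction. The total over all genes moved as well, from 1888 with 6 arrays to 805, 864 or 751 when SUM44 replicate 1, 2 or 3 was dropped, and to 4241, 757 or 1769 when LCCTam replicate 1, 2 or 3 was dropped. The 10 members called in each of these 6 fits were CSNK2A1, FKBP1A, NSFL1C, IDH3B, DDRGK1, MKKS, BTBD3, DSTN, RRBP1 and SEC23B. Without probe sets marked as able to match several transcripts, a setting added after seeing the data, the median difference was -0.43 over the 43 members left.

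**Figure D1:**
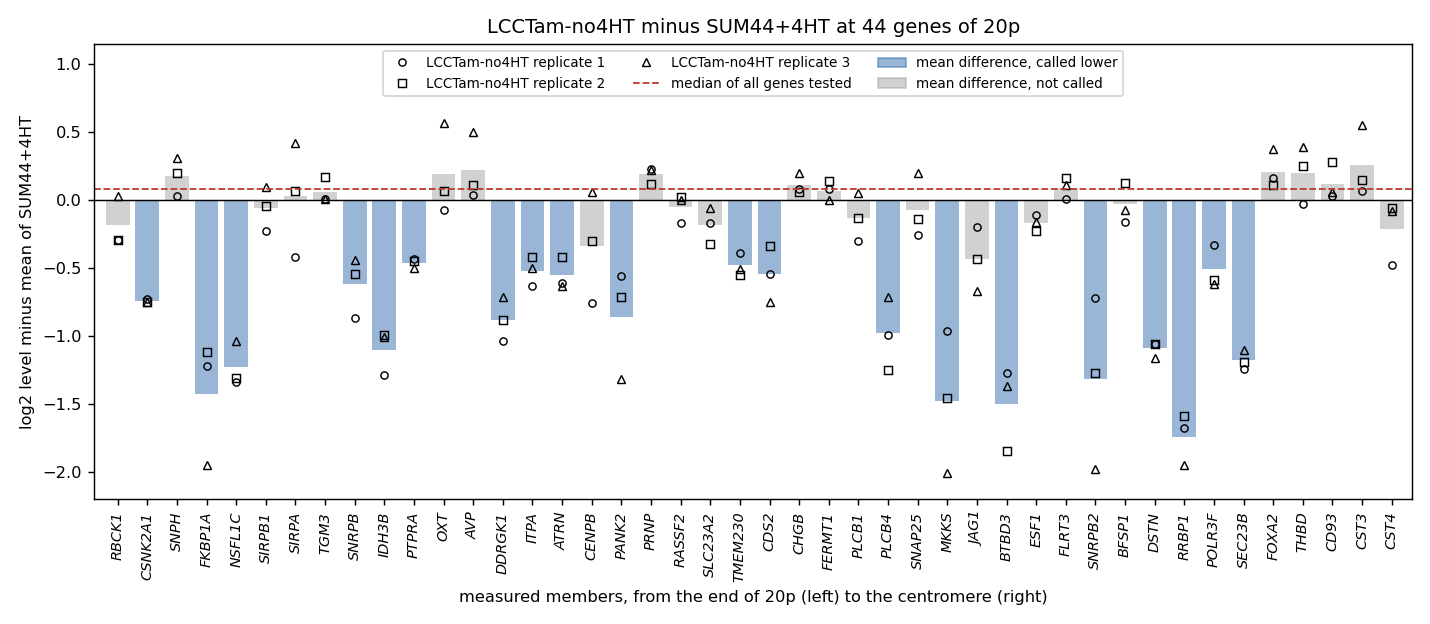
Difference of each LCCTam array from the mean of the 3 SUM44 arrays (open symbols, log2) and the mean difference (bars) for the 44 measured members, in order along 20p. Blue bars mark the 20 members called lower, and the dashed line is the median of all genes, 0.08; the low bars run from CSNK2A1 to SEC23B, and RRBP1 reaches -1.74.

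In chromosome order the lower members were spread along the arm. With the 44 members in 4 stretches of 11, from the end of the arm to the centromere, 6, 5, 4 and 5 were called lower, with median differences of -0.46, -0.34, -0.17 and -0.21. Lower calls made up 6.60% of all genes tested. The stretches held 6, 7, 3 and 6 members above the median of gene means. The median differences of those brighter members were -0.92, -0.52, -0.54 and -1.13. The first called member from the end was CSNK2A1 and the last was SEC23B. Beyond SEC23B, the 5 members nearest the centromere, FOXA2, THBD, CD93, CST3 and CST4, differed by -0.21 to 0.26 and none was called. Of these, FOXA2, THBD and CD93 lay below the median of gene means. The lower calls of the arm did not end there. Among genes of that stretch that are not listed members, CST1 (-1.02), APMAP (-1.11) and GINS1 (-0.68) were called lower and GGTLC1 (1.03) higher. Neighbours could differ widely. DSTN, which severs actin filaments, differed by -1.09, while the member beside it, BFSP1, a filament protein of the eye lens, differed by -0.03 at a dim signal. Among the members JAG1 lies between MKKS and BTBD3, and the 3 differed by -1.48, -0.43 and -1.50 in that order.

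The members that were lower were largely those with a bright signal. The median of gene means was 7.11, and 22 members lay above it. Of these, 16 were called lower, where 9.58% of all genes above that level were, and their median difference was -0.68 beside 0.09 for such genes. The level is a mean over both groups, so it is not independent of the difference. MKKS, PANK2 and ATRN, all called lower, passed it only through SUM44. Their LCCTam means were 7.01, 7.04 and 6.87. The 14 members between 5.93, the lower quartile of gene means, and 7.11 had a median difference of 0.04 and 1 call (PTPRA). The 8 members below 5.93 had a median of -0.11 and 3 calls (PLCB4, BTBD3 and POLR3F). At or below the median level, 4 of 22 members were thus called lower, beside 217 of 5982 of all genes. Over the 44 members, level and difference were related with Spearman's rho of -0.51 and Pearson's r of -0.49, and over all genes with 0.05 and -0.02. These describe genes read from the same 6 arrays, and signals of different probe sets are not amounts of transcript. No detection calls were used, so a dim gene that is not expressed cannot be told from one that did not differ.

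**Figure D2:**
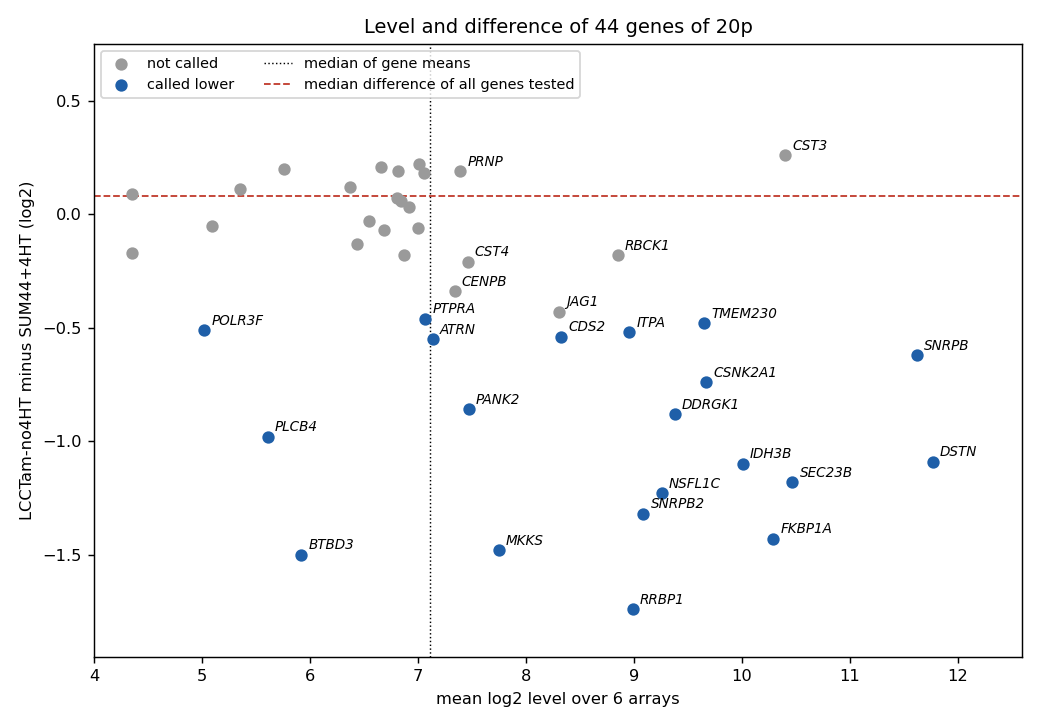
Difference (LCCTam minus SUM44, log2) against the mean log2 level over 6 arrays for the 44 members; blue points were called lower and grey points were not. To the right of the dotted line at 7.11, 16 of 22 members are blue, and CST3 at 0.26 and PRNP at 0.19 are the 2 above 0.

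The 6 measured members grouped under membrane traffic, the endoplasmic reticulum and protein quality were all called lower, with a median difference of -1.20. All 6 lay above the median of gene means, where 9.58% of all genes were called lower. SNAP25, a fusion protein of synaptic vesicles, was grouped with the neuronal members and was not called (-0.07). RRBP1, a ribosome-binding protein of the endoplasmic reticulum, stood at 9.60, 10.00 and 9.98 in SUM44 replicates 1, 2 and 3 and at 8.18, 8.27 and 7.91 in LCCTam replicates 1, 2 and 3. The groups lay far apart, and the level was 3.34-fold lower (-1.74 ± 0.15 SE), the largest difference among the members at the probe sets used; with the mean of its 6 probe sets it was -0.49. SEC23B, a coat subunit of vesicles that leave the endoplasmic reticulum, stood at 11.08, 10.98 and 11.11 in SUM44 and at 9.82, 9.87 and 9.96 in LCCTam. All 6 arrays were tight within their group, and the difference was -1.18 ± 0.10 SE, or 2.26-fold. NSFL1C, the p47 cofactor of the ATPase p97 in membrane fusion, was at 10.03, 9.82 and 9.77 in SUM44 and at 8.54, 8.57 and 8.83 in LCCTam (-1.23 ± 0.13 SE).

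MKKS, a chaperonin-like protein needed to build the BBSome of cilia, was at 8.72, 8.37 and 8.38 in SUM44 and at 7.54, 7.03 and 6.48 in LCCTam. The groups did not overlap (-1.48 ± 0.25 SE), but the LCCTam arrays spread over 1.06, replicate 3 being lowest. DDRGK1, an adaptor for the ubiquitin-like modifier UFM1 at the endoplasmic reticulum, differed by -0.88 and TMEM230, a membrane protein of vesicles, by -0.48. TMEM230 kept its call without LCCTam replicate 1 and lost it with each of the other 5 arrays left out.

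Of the 6 measured members of metabolism, 4 were called lower, beside 6.60% of all genes tested and 9.58% of those above the median level. IDH3B, a subunit of the NAD-dependent isocitrate dehydrogenase of the citric acid cycle, stood at 10.66, 10.51 and 10.51 in SUM44 and at 9.27, 9.57 and 9.55 in LCCTam. The level was 2.14-fold lower (-1.10 ± 0.12 SE), with all LCCTam arrays below all SUM44 arrays. PANK2, the mitochondrial kinase that begins coenzyme A synthesis, differed by -0.86 ± 0.21 SE, CDS2, which makes CDP-diacylglycerol for phospholipids, by -0.54 ± 0.13, and ITPA, which clears inosine triphosphate, by -0.52 ± 0.12. SLC23A2, a vitamin C transporter, differed by -0.18 and TGM3, a transglutaminase of the epidermis, by 0.06, and neither was called.

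Among 8 signalling members, 4 were called lower and all 8 differences were negative at the probe sets used. Of all 11963 genes, 6.60% were called lower and 4430 had a negative difference. CSNK2A1, the catalytic subunit of casein kinase 2, was at 10.06, 10.01 and 10.05 in SUM44 and at 9.31, 9.29 and 9.29 in LCCTam. The 3 values of each group were nearly equal, and the level was 1.68-fold lower (-0.74 ± 0.09 SE). CSNK2A1 has a near-identical retrocopy elsewhere in the genome that its probes could share. FKBP1A, the prolyl isomerase bound by rapamycin, was at 10.88, 10.95 and 11.19 in SUM44 and at 9.79, 9.88 and 9.06 in LCCTam, 2.69-fold lower (-1.43 ± 0.22 SE), with replicate 3 well below the other LCCTam arrays at this probe set. At the next brightest ones replicate 3 was the highest LCCTam array (9.23, 9.52 and 9.75, then 7.92, 8.26 and 8.37). At the dimmest it was again lowest, at 7.10.

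PTPRA, a receptor tyrosine phosphatase, differed by -0.46 and PLCB4, a phospholipase C of G protein signalling, by -0.98, and both were called. JAG1, a Notch ligand, was at 8.66, 8.54 and 8.39 in SUM44 and at 8.33, 8.10 and 7.86 in LCCTam. The groups did not overlap, but the difference of -0.43 ± 0.15 SE was not called in the fit of the groups alone. It was called lower without LCCTam replicate 1, and with all 6 arrays when the replicate number was a block. RBCK1, a subunit of the linear ubiquitin ligase complex, differed by -0.18, and by 0.18 at its dimmer probe set. The phospholipase PLCB1 differed by -0.13 and RASSF2, a Ras-association protein, by -0.05.

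Of the 6 measured members of RNA processing and transcription, 3 were called lower, beside 6.60% of all genes tested. SNRPB2, a protein of the U2 particle of the spliceosome, stood at 9.79, 9.69 and 9.77 in SUM44 and at 9.04, 8.48 and 7.77 in LCCTam. The SUM44 arrays lay within 0.10 and the LCCTam arrays spread over 1.27, the widest range of any member, around a difference of -1.32 ± 0.28 SE. SNRPB, a core protein of spliceosomal particles, differed by -0.62 and POLR3F, a subunit of RNA polymerase III, by -0.51 at a dim level. CENPB, which binds centromeric DNA, differed by -0.34 with overlapping groups, and ESF1, a nucleolar protein of ribosome assembly, by -0.17 at a dim level.

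FOXA2, a forkhead factor of endodermal tissues and a relative of the luminal factor FOXA1, was at 6.47, 6.78 and 6.41 in SUM44 and at 6.71, 6.66 and 6.93 in LCCTam. The groups overlapped, and the difference was 0.21 ± 0.14 SE (0.13 without LCCTam replicate 3) at a signal below the median of gene means.

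Of 11 members of the cytoskeleton and cell surface, 3 were called lower, beside 6.60% of all genes tested. DSTN was at 12.22, 12.25 and 12.47 in SUM44 and at 11.26, 11.25 and 11.16 in LCCTam, 2.13-fold lower (-1.09 ± 0.11 SE), at a very bright signal with little spread. ATRN, the attractin protein of the cell surface, differed by -0.55 ± 0.10 SE. BTBD3, a BTB-domain protein known for shaping dendrites, was named after its values were seen. It was at 6.81, 6.36 and 6.82 in SUM44 and at 5.39, 4.82 and 5.29 in LCCTam (-1.50 ± 0.19 SE), a large difference at a dim level.

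PRNP, the prion protein, was at 7.25, 7.39 and 7.25 in SUM44 and at 7.53, 7.42 and 7.52 in LCCTam. All LCCTam arrays lay above all SUM44 arrays, but by little, and the difference of 0.19 ± 0.10 SE was not called and was 0.07 after cyclic loess. The other surface and filament members, SIRPA and SIRPB1 (immunoreceptors of myeloid cells), FERMT1 (an integrin activator), FLRT3 (an adhesion protein), BFSP1, THBD (the thrombin receptor of endothelium) and CD93 (an endothelial lectin), differed by -0.06 to 0.20. Their mean levels were 4.35 to 7.00, all below the median of gene means.

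None of the 7 secreted, neuronal and neuroendocrine members was called, and their median difference was 0.18. All genes tested had a median of 0.08, with 6.60% called lower and 9.18% higher. CST3, the secreted protease inhibitor cystatin C, was the only bright one besides CST4, at 10.21, 10.27 and 10.32 in SUM44 and at 10.34, 10.42 and 10.82 in LCCTam. LCCTam replicate 3 stood highest, and the difference of 0.26 ± 0.14 SE became 0.11 without it. CST4, a salivary cystatin, differed by -0.21. SNAP25, a fusion protein of synaptic vesicles, was at 6.80, 6.71 and 6.67 in SUM44 and at 6.46, 6.59 and 6.92 in LCCTam, with overlapping groups (-0.07 ± 0.14 SE).

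The hormone genes AVP (vasopressin) and OXT (oxytocin), which lie side by side, differed by 0.22 ± 0.16 SE and 0.19 ± 0.17 SE. AVP was at 6.69, 7.01 and 7.01 in SUM44 and at 6.95, 7.02 and 7.40 in LCCTam. OXT was at 6.68, 6.78 and 6.71 in SUM44 and at 6.66, 6.79 and 7.30 in LCCTam. In both, LCCTam replicate 3 stood above the other arrays, and the groups overlapped. Without that array the differences were 0.08 for AVP and 0 for OXT. SNPH, which anchors mitochondria in axons, was at 6.58, 7.19 and 7.15 in SUM44 and at 7.00, 7.17 and 7.28 in LCCTam; its difference of 0.18 ± 0.18 SE became -0.02 without SUM44 replicate 1. CHGB, a granin of secretory granules, differed by 0.11 at a dim level.

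**Figure D3:**
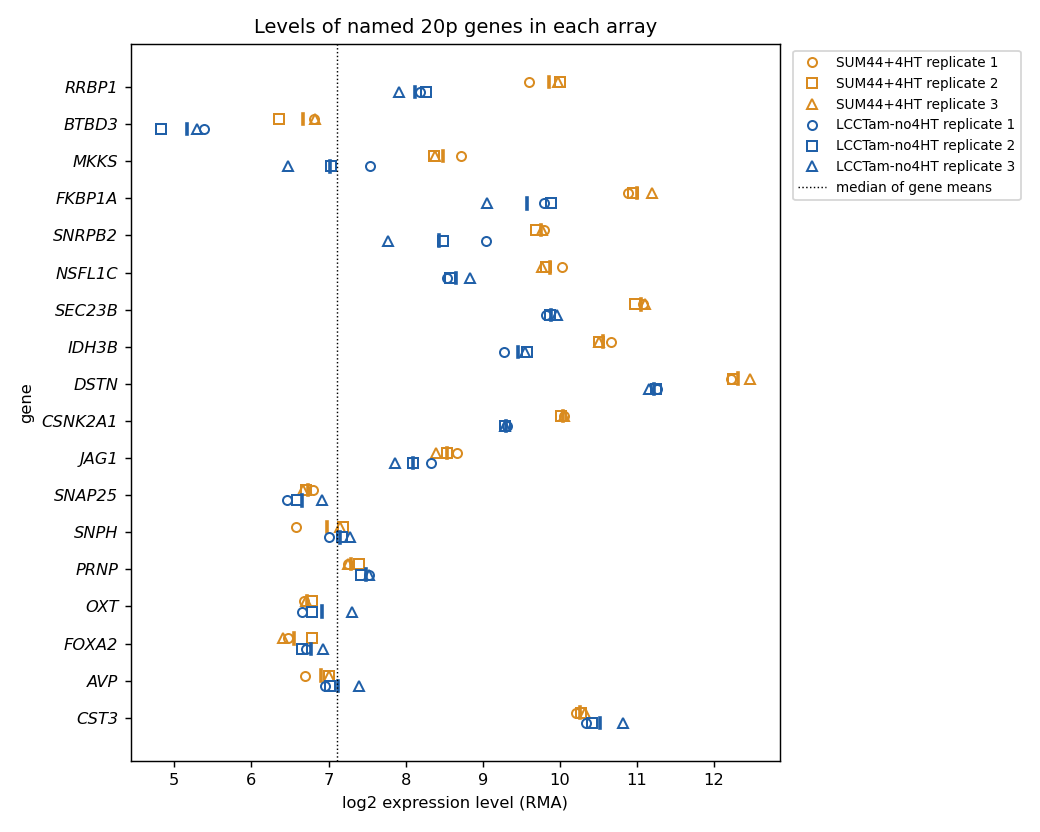
Log2 levels of 18 members in each of the 6 arrays, SUM44 in orange and LCCTam in blue, with a vertical bar at each group mean and a dotted line at the median of gene means, 7.11. From RRBP1 down to JAG1 all blue symbols lie left of all orange ones, and MKKS and SNRPB2 show the widest blue spread, 1.06 and 1.27.

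The LCCTam arrays agreed closely at some lower members and not at others. Ranges over the 3 LCCTam arrays were 0.02 for CSNK2A1, 0.07 for PTPRA, 0.10 for DSTN and 0.14 for SEC23B. They were 0.75 for PANK2, 0.82 for FKBP1A, 1.06 for MKKS and 1.27 for SNRPB2, and in all 4 of the latter replicate 3 was lowest at the probe set used. For FKBP1A, replicate 3 was the highest LCCTam array at the next brightest probe sets (9.75 and 8.37) and lowest at the dimmest (7.10). The members' median SD was 0.13 in SUM44 and 0.17 in LCCTam, beside 0.11 and 0.19 over all genes. Over the 22 brighter members, the median difference was -0.72, -0.63 and -0.73 in LCCTam replicates 1, 2 and 3, beside 0.01, 0.10 and 0.18 over all genes above the same level. These medians share the SUM44 mean and come from the values on which the arm was chosen, so nothing is read from their likeness. Single brighter members differed from them, with CST3 and PRNP above the SUM44 mean in all 3 LCCTam arrays.

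Several members were read by more than 1 probe set, in all 24 of the 44. The called members had 23 dimmer probe sets in 12 genes, of which 20 had the same sign as the one used. In a fit of every probe set 17 of the 23 were called lower. The members not called had 18 dimmer probe sets in 12 genes, with 15 of the same sign and 2 called lower. Over all probe sets that fit called 3002, lower or higher. Dimmer probe sets read the same 6 arrays, for genes sorted by their call at the probe set used. Their agreement is therefore no independent evidence. CSNK2A1 was lower at all 4 of its probe sets, with differences of -0.61 to -0.93, and SEC23B at all 3, with differences of -0.69 to -1.68. CDS2 differed by -0.54 at the probe set used and by -1.04 at one of almost equal brightness.

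The size for RRBP1 rested on 1 probe set. Its 5 dimmer ones gave -0.83, -0.40, -0.15, 0.08 and 0.09. FKBP1A gave -1.05 and -0.88 at 2 dimmer probe sets and 0.54 at the dimmest, and the mean of all 4 gave -0.71.

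At PLCB1 a probe set that was not used lay much lower. The probe set used, of a kind that can match several transcripts, gave -0.13, whereas one of nearly the same brightness was at 7.93, 7.14 and 7.52 in SUM44 and at 6.10, 4.74 and 5.04 in LCCTam. That is a difference of -2.23 ± 0.36 SE with no overlap between the groups. PLCB1 was called lower with the mean of its probe sets and without such probe sets. SNAP25 had a dim second probe set at -0.66, which was also called lower in the fit of every probe set.

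**Figure D4:**
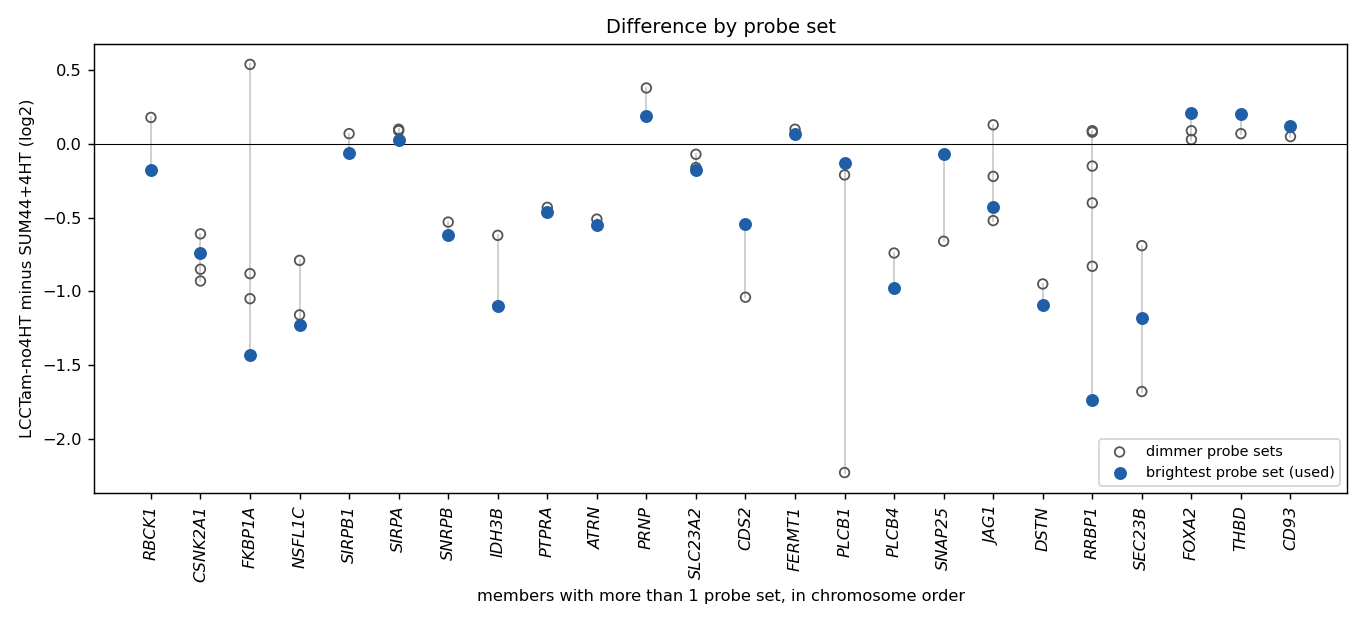
Difference (LCCTam minus SUM44, log2) at each probe set of the 24 members with more than 1; filled circles are the brightest probe set, which was used, and open circles the dimmer ones. CSNK2A1 and SEC23B lie below 0 throughout, RRBP1 runs from -1.74 to 0.09, and PLCB1 has one probe set at -2.23.

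Promoter sequences show which common elements stand at the start of these genes. RefSeq promoter windows of GRCh38.p14 were matched by symbol for 29 of the 44 members, 17 of them called lower, and the 250 bases before each start site were searched on both strands for 5 motifs. The promoters of 4 genes are printed from 5′ to 3′ along the gene's own strand, those of RRBP1, MKKS and FKBP1A, which have the largest lower differences among members with a mean level above 5.93 (BTBD3, at -1.50, lies just under it), and of CST3, the brightest member that was not lower. Capitals mark matches to GGGCGG (the GC box), to CCAAT (bound by NF-Y), to TATAAA (the TATA box), to CCGGAAG (bound by ETS factors) or to TGACG (the core of sites for CREB and ATF factors), or to their reverse complements. The windows are chr20:17682243-17682492 on the reverse strand for RRBP1, chr20:10434223-10434472 on the reverse strand for MKKS, chr20:1393055-1393304 on the reverse strand for FKBP1A and chr20:23637956-23638205 on the reverse strand for CST3.
RRBP1: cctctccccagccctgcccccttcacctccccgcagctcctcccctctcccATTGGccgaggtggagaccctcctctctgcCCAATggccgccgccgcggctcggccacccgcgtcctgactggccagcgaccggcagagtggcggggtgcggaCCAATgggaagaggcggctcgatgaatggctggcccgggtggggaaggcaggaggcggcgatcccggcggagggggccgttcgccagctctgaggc
MKKS: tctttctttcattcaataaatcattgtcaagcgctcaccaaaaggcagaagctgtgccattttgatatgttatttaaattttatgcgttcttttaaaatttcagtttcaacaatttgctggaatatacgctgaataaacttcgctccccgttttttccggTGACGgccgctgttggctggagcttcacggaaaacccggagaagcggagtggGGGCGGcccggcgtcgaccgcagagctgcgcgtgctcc
FKBP1A: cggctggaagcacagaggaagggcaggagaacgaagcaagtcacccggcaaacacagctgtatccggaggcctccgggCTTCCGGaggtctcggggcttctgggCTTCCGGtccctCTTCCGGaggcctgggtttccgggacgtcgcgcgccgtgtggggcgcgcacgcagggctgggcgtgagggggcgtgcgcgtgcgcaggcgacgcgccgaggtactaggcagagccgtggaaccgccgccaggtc
CST3: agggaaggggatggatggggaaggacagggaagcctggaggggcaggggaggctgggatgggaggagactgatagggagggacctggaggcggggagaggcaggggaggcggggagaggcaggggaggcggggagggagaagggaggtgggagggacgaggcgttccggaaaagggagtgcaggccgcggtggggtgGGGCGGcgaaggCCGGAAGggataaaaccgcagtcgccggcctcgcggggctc

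The 3 lower genes do not share 1 motif. RRBP1 carries CCAAT boxes, FKBP1A repeated ETS motifs, and MKKS a GC box and a CREB core in a window of 47.6% G and C. CST3 holds a GC box and an ETS motif. The ETS motif stood in 7 of 17 promoters of members called lower and 2 of 12 of those not called. It stood in 12.9% of the 9438 promoters of coding genes tested here, in 16.7% of those above the median level and in 8 of 18 members above that level. The GC box stood in 11 of 17 and 7 of 12, and in 60.9% of all. The CREB core stood in 7 of 17 and 2 of 12, and in 27.3% of all. The CCAAT box stood in 5 of 17 and 5 of 12, and in 35.6% of all, and the TATA box in 0 of 17 and 1 of 12 (TGM3), and in 7.89% of all. Median CpG counts in the window were 19 and 16 in called and uncalled members. A match describes these letters only.

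The remaining measured genes of 20p were read as well. Since the members were listed with these results known, nothing is read from a comparison of their share of lower calls with that of the rest. Of 66 coding genes of the arm that are not listed members, 12 were called lower (18.2%), 2 higher and 52 not called. Over all genes, 6.60% were called lower and 9.18% higher. The median difference of the 66 genes was 0.04, which turned to -0.03 after cyclic loess and -0.02 without LCCTam replicate 3. Among the 27 of them above the median level, 9 were called lower (33.3%) and 2 higher, with a median of -0.22. Of all genes above that level, 9.58% were called lower. The lower ones included APMAP, a membrane protein near the centromere (-1.11 ± 0.12 SE), MAVS, the mitochondrial adaptor of antiviral signalling (-0.82 ± 0.14), FASTKD5, a mitochondrial RNA-processing protein (-0.86 ± 0.15), and GINS1, a subunit of the replicative helicase (-0.68 ± 0.19). The 2 called higher were TRIB3, a pseudokinase induced by the amino acid and stress response (1.51 ± 0.21), and GGTLC1 (1.03 ± 0.13). PCNA, the sliding clamp of DNA replication, differed by -0.87 without a call. Those genes were named after their values were seen. With members and the rest of the arm together, 32 of 110 measured coding genes were called lower and 2 higher, and among the 49 above the median level 25 were called lower.

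The long arm of the same chromosome had few lower calls. Of 211 measured coding genes of 20q, 7 were called lower and 18 higher, and the median difference was 0.13, beside 6.60% lower, 9.18% higher and a median of 0.08 over all genes. The 20q median was 0.03 after cyclic loess and 0.08 without LCCTam replicate 3. At 5 genes of 20q the level was at least 2-fold lower, as it was at 11 of the 110 on 20p and 4.48% of all genes. Among them ARFGEF2 (-1.49), RBM39 (-1.42), TOP1 (-1.13) and CSE1L (-1.04), named after their values were seen, were not called. Each was lowest in LCCTam replicate 3. Above the median level, 6 of 137 were called lower, with a median of 0.15, against -0.48 for the 49 genes of 20p above that level. In LCCTam replicates 1, 2 and 3 those medians were 0.08, 0.18 and 0.23 for 20q and -0.49, -0.41 and -0.44 for 20p. The difference between the arms was not tested, since the short arm was chosen on this comparison.

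**Figure D5:**
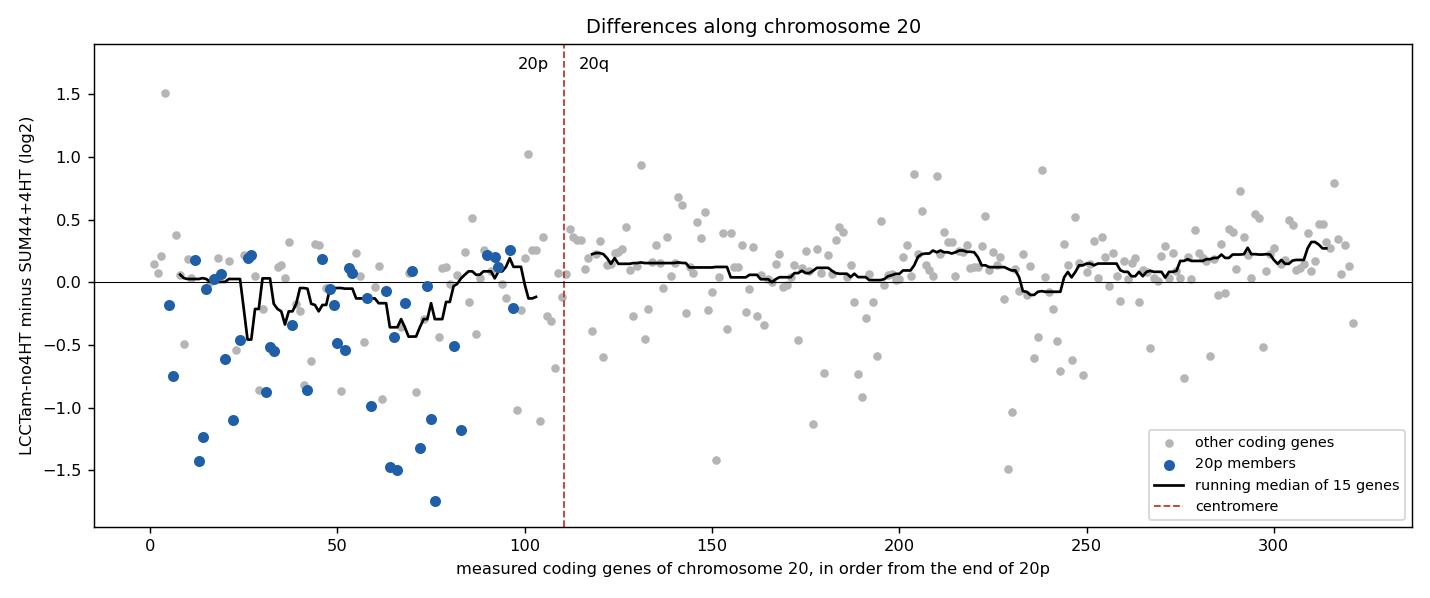
Difference (LCCTam minus SUM44, log2) of the measured coding genes of chromosome 20 in gene order. Listed 20p members are blue, other genes grey and a running median of 15 genes black. The dashed line is the centromere, taken as the widest stretch without a coding gene. The lowest point, RRBP1 at -1.74, lies on 20p, where 32 of 110 genes were called lower, and 7 of 211 were on 20q, while TRIB3 stands out on 20p at 1.51.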

How the data were processed

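The deposited table holds log2 values from RMA, which corrects background, normalises by quantiles and summarises probe sets. RMA is named in the design text of the series and, per the submitters' processing notes, is what the authors ran; no version is stated in what was used here. The values ran from 3.16 to 14.63, with array medians of 6.70 to 6.77. Quantile normalisation hides any change in total RNA. Of 22283 probe sets, 68 controls were left out, 19065 had 1 gene, 1043 several and 2107 none. The brightest probe set annotated to a gene alone stood for it (11963 genes), with symbols updated through RefSeq.

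Groups came from the titles. The titles call the cultures biological replicates without saying how they were separated, so p-values measure the spread between them. Each gene was fitted in limma 3.58.1 (lmFit, eBayes; R 4.3.3), two-sided, with p-values adjusted by Benjamini-Hochberg over all genes. Residual degrees of freedom were 4 and prior ones 3.51. The scripts were tested on simulated data. The members, role groups and other lists were chosen with earlier results of these data known. Array values are printed for the 8 lowest and 6 highest differences among members with a mean above 5.93, and for FOXA2, JAG1, PRNP, CST3, SNAP25 and CSNK2A1 (17 named members; BTBD3 was added after its values were seen). The number of arrays limits the precision. Alternatives changed the probe set rule, the level filter, the scaling, the variance fit, the threshold, the replicate block and the arrays included. Tables were made with Python 3.11.15.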

Additional observations from a re-analysis of the deposited data

How the results depend on the processing

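All 20 lower calls of members were kept when all probe sets were tested singly, and with the mean of probe sets, cyclic loess, array median centring, an intensity trend with robust fitting and no multiply matching probe sets, and 16 of 16 tested among brighter genes. No member was called higher in any setting run. At an adjusted p under 0.01, 10 members and 723 genes were called, and with every probe set tested, 3002. The all-gene median of 0.08 became 0 after cyclic loess.

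Leaving out 1 array gave 10 to 21 called members and 751 to 4241 called genes. Among brighter genes only, the median difference was -0.68 for members, -0.22 for other 20p genes and -1.14 for those whose array values are printed by rule (the named members); it was 0 for the members at or below the median level. The 17 named members were picked mostly for the lowest and highest differences, which sets their median of -0.74 (-0.27 over all 44 members). It was -0.49 with the mean of probe sets, -0.84 after cyclic loess and -0.92 without multiply matching probe sets, where the members' median was -0.43. That last setting dropped OXT, which had no other probe set, and so covered 43 members and 16 named members. PLCB1 was then read by its probe set at -2.23. These 2 medians thus rest on a changed set of genes and probe sets. The causes of the other shifts were not tested. Both the dim-level split and the last setting were added after seeing the data.

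With the replicate number as a replicate block, 20 members (POLR3F lost, JAG1 gained) and 2152 genes were called. The labels give no shared culture, day or batch for a number, so the numbers were not taken as pairs in the main fit. Deviations of same-numbered arrays correlated at 0.49, 0.35 and -0.05. Whether the numbers mark pairs cannot be told from these values. Dim signals cannot be told from background without detection calls.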
